A study of Mus musculus with 10 samples.

Results

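The response of naïve mouse embryonic stem cells (ESCs) to the loss of Gys1 was compared between cells with and without a knockout of AMPKα. For each gene the quantity was the interaction, the J1-GKO minus J1-WT difference less the J1-DKO minus J1-AKO difference, on the log2(TPM + 1) scale. TPM is an abundance within a library that is corrected for transcript length, so it can be compared between genes. The members were the 8 libraries of these 4 lines, of 10 in the series, with 2 libraries per line. A positive interaction means that the response to GYS1 loss was more positive in the AMPKα-intact pair, and a negative interaction that it was more negative there. Of 21853 listed genes, the 12060 with at least 1 TPM in at least 2 of the 10 libraries were tested.

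J1 is a mouse ESC line derived from a male embryo. J1-WT was unedited, J1-GKO carried an indel in exon 9 of Gys1 made with Cas9, J1-AKO was edited at Prkaa1, the gene of AMPKα1, and J1-DKO carried the knockouts of both. The naïve medium held LIF, the MEK inhibitor PD0325901 and the GSK3 inhibitor CHIR99021, so the comparison was made under naïve conditions throughout. The paper's methods give this medium with serum or on an N2B27 base, and do not say which was used for these libraries. The remaining 2 libraries were primed ESCs (PJ1) in Fgf2 and Activin A medium, which entered the estimate of the spread but no difference described here. Unless PJ1 is named, the libraries and lines referred to below are those of the 4 naïve lines. J1-GKO was derived as clones, and edited cells of J1-AKO and J1-DKO were isolated through an inserted RFP reporter. Which clones the libraries came from, and from which line J1-DKO was made, is not given in the sources used here. Genes of the Y chromosome, given below, were expressed in J1-GKO and J1-DKO and listed at 0 in J1-WT and J1-AKO. J1-GKO minus J1-WT and J1-DKO minus J1-AKO thus each compare 2 lines that differ in more than Gys1. Below, the response to GYS1 loss is a name for these differences between lines. Wording such as the response in J1-AKO or without AMPKα stands for J1-DKO minus J1-AKO. It does not mean that J1-DKO was made from J1-AKO. Differences between clones and the effect of a knockout therefore cannot be told apart. Nothing states that the 2 libraries of a line were separate cultures, so p-values measure the spread between these libraries, which may be technical.

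Glycogen synthase, the product of Gys1, extends glycogen chains from UDP-glucose. AMPK is a kinase of an α catalytic, a β and a γ subunit that is activated when cellular energy falls. It phosphorylates enzymes of fatty acid and sterol synthesis and restrains the growth kinase mTORC1, and its β subunit can bind glycogen. The comparison addresses whether the transcriptional consequences of glycogen loss depend on AMPKα.

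Prkaa1 lay on chromosome 15 from base 5173186 to 5211750 (GRCm39) and was at 15.5 and 16.6 TPM in J1-WT and at 7.24 and 6.94 TPM in J1-AKO. It was at 12.2 and 12.0 TPM in J1-GKO and at 2.30 and 2.04 TPM in J1-DKO. The 4 lines did not overlap, and Prkaa1 mRNA was lowest in J1-DKO and not abolished in either AMPKα knockout. Its interaction was 0.97 (SE 0.10, adjusted p = 0.000291, limma with Benjamini-Hochberg adjustment). The J1-DKO minus J1-AKO difference was -1.35 and the J1-GKO minus J1-WT difference -0.38. Prkaa2, which encodes AMPKα2 and was not targeted, was at 2.38 and 2.41 TPM in J1-WT, at 3.27 and 3.29 TPM in J1-GKO, at 2.71 and 2.44 TPM in J1-AKO and at 3.29 and 3.10 TPM in J1-DKO. Its interaction was 0.10 (SE 0.11). Gys1 was between 9.70 and 12.7 TPM in all 8 libraries, with an interaction of -0.11 (SE 0.08, limma adjusted p = 0.386). TPM does not report whether a transcript carries an indel or whether protein is made.

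The ESC label was borne out by the levels of Pou5f1, Nanog and Zfp42, which encode pluripotency factors. Across the 8 libraries Pou5f1 was between 705 and 838 TPM, Nanog between 429 and 521 TPM and Zfp42 between 436 and 474 TPM. Their interactions were -0.16, -0.06 and 0.07, and none passed the test. Among markers of fibroblasts, blood and endothelium, Col3a1, Ptprc, Hbb-bs and Cdh5 were at or under 0.08 TPM in the 8 libraries. The summed TPM of 8 fibroblast markers was 3.86 and 3.25 in J1-WT, 9.54 and 10.7 in J1-GKO, 3.47 and 3.56 in J1-AKO and 3.40 and 3.43 in J1-DKO. Thy1 was the most abundant of them, at 7.14 and 8.48 TPM in J1-GKO, and 6 of the 8 were under 1 TPM in all 8 libraries. Of 4 tested fibroblast markers 3 had a positive interaction that passed the test described below, where 12.8% of all genes did, namely Thy1 (1.57), Col1a1 (0.36) and Pdgfrb (0.32), the last at 0.394 and 0.37 TPM in J1-WT and 1.57 and 1.5 TPM in J1-GKO. Cd34, a marker of blood progenitors and endothelium, was between 0.878 and 1.93 TPM, with an interaction of 0.61. The calls of Thy1 and Pdgfrb were lost when any 1 of the 8 libraries was left out, and that of Col1a1 without any of 7 of them. Pdgfrb reached 1 TPM in both J1-GKO libraries and otherwise solely in J1-DKO replicate 1 (1.03 TPM). It thus passed the filter through J1-GKO, the line in which it was highest, so its positive interaction was in part built in. The sum of 12 trophectoderm markers was 34.1 and 33.2 TPM in J1-WT, 67.3 and 68.3 TPM in J1-GKO, 31.6 and 31.6 TPM in J1-AKO and 48.5 and 51.4 TPM in J1-DKO, with Tead4 the most abundant in J1-WT, at 12.9 TPM, and at 12.8 TPM in J1-GKO. Of its 8 tested members 6 rose in J1-GKO and 5 in J1-DKO, where 24.7% and 22.4% of all genes did. Those that rose in J1-GKO include Tfap2c, with 6.68 and 6.29 TPM in J1-WT and 23.2 and 24.3 TPM in J1-GKO, Cdx2, with 2.57 and 2.66 TPM and 6.62 and 7.27 TPM, and Krt18, with 2.04 and 1.55 TPM and 4.20 and 4.14 TPM. Among untested trophectoderm markers, Gata3 was at 0.911 and 0.629 TPM in J1-WT and at 0.048 and 0.101 TPM in J1-GKO. Hand1 was at 0.095 and 0.024 TPM in J1-WT and at 0.575 and 1.042 TPM in J1-GKO. Elf5 was at most 0.182 TPM in the 8 libraries. The sum of 14 primitive endoderm markers was between 101 and 110 TPM in J1-WT, J1-GKO and J1-AKO and at 145 and 141 TPM in J1-DKO. Sparc was the most abundant, at 84.7 and 89.7 TPM in J1-AKO and 122 and 120 TPM in J1-DKO, and made up most of the sum. Of the defining markers of that lineage, Gata6, Sox17 and Pdgfra were at most 0.277 TPM in the 8 libraries. Gata4 was at most 1.385 TPM, its highest value being in J1-GKO. The sum of 8 neural markers was 60.3 and 62.1 TPM in J1-WT, 98.3 and 97.0 TPM in J1-GKO, 48.5 and 50.8 TPM in J1-AKO and 69.3 and 72.6 TPM in J1-DKO. Nearly all of that sum was Tubb3, a tubulin gene, and Pax6 and Neurod1 were under 1 TPM in the 8 libraries, although Neurod1, at 0.596 and 0.682 TPM in J1-DKO and at most 0.277 TPM in the other lines, had an interaction of -0.37 that passed the test and lost its call when any 1 of the 8 libraries was left out. In these bulk samples, fewer cells of a type and less RNA per cell cannot be told apart. The part of such cells in the results was not tested.

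The edited lines also stood apart in expression along chromosomes. Ddx3y, Eif2s3y, Uba1y and Uty, on the Y chromosome, were listed at 0 in J1-WT and J1-AKO and were expressed in J1-GKO and J1-DKO, with Ddx3y at 8.11 and 7.83 TPM in J1-GKO and at 22.9 and 20.9 TPM in J1-DKO. Genes of chromosome 14 had a median J1-GKO minus J1-WT difference of 0.47 and a median J1-DKO minus J1-AKO difference of 0.38, which left a median interaction of 0.08. Genes of chromosome 19 had medians of -0.40 and -0.26, with a median interaction of -0.13. The median J1-AKO minus J1-WT difference was -0.009 on chromosome 14 and -0.004 on chromosome 19. J1-DKO thus shared these shifts with J1-GKO and not with J1-AKO. Genes of chromosome 12 had a median J1-AKO minus J1-WT difference of 0.15. The tested genes were then divided along each chromosome into 293 windows of about 40 genes. In 13 windows, which formed 5 regions, the median interaction reached 0.3 in size. The median was 0.36 over 158 genes of proximal chromosome 6 and 0.79 over 40 genes of distal chromosome 6, where the J1-DKO minus J1-AKO median was -0.93. It was 0.56 over 199 genes of the X chromosome between 73.5 and 154.2 Mb, -0.48 over 82 genes of distal chromosome 12 and -0.35 over 40 genes of proximal chromosome 19. The 5 regions held 519 tested genes, of which 61.5% had an interaction that passed the threshold, against 24.2% of the genes outside them. DNA copy number was not measured, and its part in these shifts was not tested. For each gene described below that lies in a shifted region, the median interaction of its 40 nearest tested genes is therefore given, together with the interaction after each library was corrected for the shift of those neighbours.

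**Figure D1:**
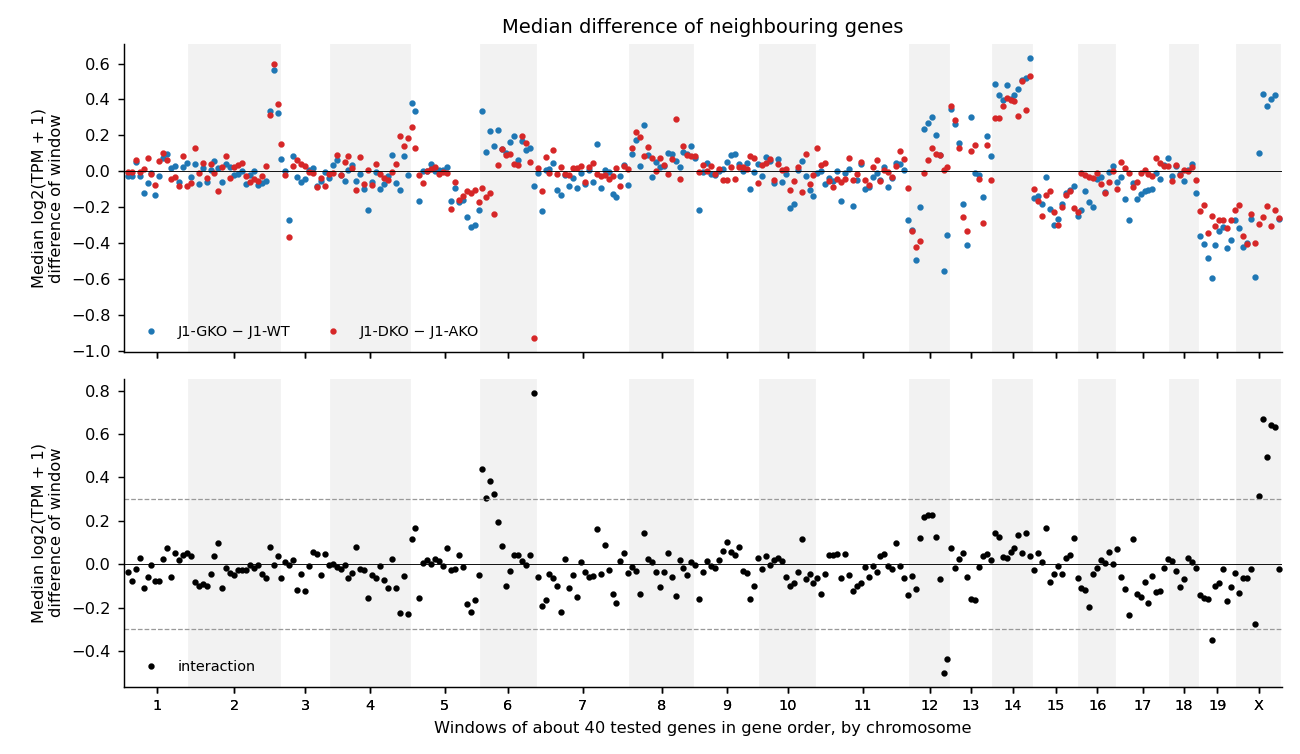
Median log2(TPM + 1) difference of windows of about 40 tested genes in gene order along each chromosome (x axis). The upper panel gives J1-GKO minus J1-WT (blue) and J1-DKO minus J1-AKO (red), and the lower panel their difference, the interaction, with dashed lines at 0.3 in either direction. Chromosome 14 is shifted alike in both, whereas the last window of chromosome 6 and 5 successive windows of the X chromosome separate them.

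Of the 12060 genes, 3116 (25.8%) had an interaction at an adjusted p under 0.05 (limma with Benjamini-Hochberg adjustment), 1540 positive (12.8%) and 1576 negative (13.1%). The size was at least 1 on the log2 scale in 349 of them, 178 positive and 171 negative. The median size was 0.52 among the genes called and 0.20 over all genes, with a median SE of 0.11. The count was 4500 or 4496 without either primed library. It was between 1944 and 2400 without 1 library of the 4 lines, being 1944 without J1-WT replicate 1, 1993 without J1-WT replicate 2, 2062 without J1-DKO replicate 2 and 2071 without either J1-AKO replicate 1 or J1-GKO replicate 1. For a single gene, 2 libraries against 2 allow no two-sided exact p below 0.333, so a call here depends on limma's pooling of the variance over genes and over all 5 lines. Taken singly, 51.7% of genes differed between J1-WT and J1-GKO and 46.3% between J1-AKO and J1-DKO, whereas 0.224% differed between J1-AKO and J1-WT, 0.0663% being higher and 0.158% lower in J1-AKO. The last comparison gave 27 genes, which became 120 or 126 without 1 primed library, 131 without both, and 1 to 3 without any 1 library of the 4 lines. The sign of the interaction was the same in all 16 choices of 1 library per line for 60.1% of the 12060 genes, positive in 28.8% and negative in 31.4%. Of the 3116 genes with an interaction, 95.7% also differed between J1-GKO and J1-DKO, where 43.5% of all genes did, a comparison that shares its libraries with the interaction.

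The responses in the 2 backgrounds were related across genes but not equal. Across the 12060 genes, the slope of the J1-DKO minus J1-AKO difference on the J1-GKO minus J1-WT difference was 0.52, and it lay between 0.48 and 0.52 when computed from each of the 16 choices of 1 library per line. The slope depends on the correlation as well as on the spread of each response, so a slope under 1 does not by itself show that the response was smaller without AMPKα. Pearson's r across genes was 0.57 and Spearman's coefficient 0.53, which are descriptions, since genes are not independent replicates and neighbouring genes moved together. After the correction for neighbouring genes the slope was 0.50, and 1311 positive and 1233 negative interactions of the 12060 genes passed the test.

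Genes with an interaction were classed by which response passed the threshold. The response to GYS1 loss passed in J1-WT and not in the J1-AKO background for 1125 genes (36.1% of those with an interaction), termed lost. In 713 of these, the J1-DKO minus J1-AKO difference was at most 0.25 times the J1-GKO minus J1-WT difference in size. The response passed in both backgrounds with the same direction and a smaller size without AMPKα for 400 genes (reduced), and with a larger size for 260 (enlarged). It passed in both with opposite directions for 458 (reversed), it passed solely in the J1-AKO background for 819 (gained), and 54 passed in neither background taken alone, the largest of them at 5 TPM or more being Fcor (-0.88), Neil1 (-0.73) and Qprt (0.57). The calls of these 3 were lost without any of 7, 7 and 8 of the 8 libraries. The class sizes moved when 1 library was left out, primed libraries included, to between 679 (without J1-WT replicate 1) and 1450 (without primed replicate 1) lost genes, 192 (without J1-AKO replicate 1) and 724 (without primed replicate 2) reduced, 95 (without J1-WT replicate 1) and 512 (without primed replicate 2) enlarged, 282 (without J1-WT replicate 1) and 689 (without either primed library) reversed, 511 (without J1-DKO replicate 2) and 1075 (without primed replicate 1) gained, and 19 (without J1-WT replicate 2) and 54 (without primed replicate 2) in neither. Among the 6241 genes that differed between J1-GKO and J1-WT, 3998 had no interaction that passed the threshold, and 2554 of these differed in the same direction in both backgrounds.

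**Figure D2:**
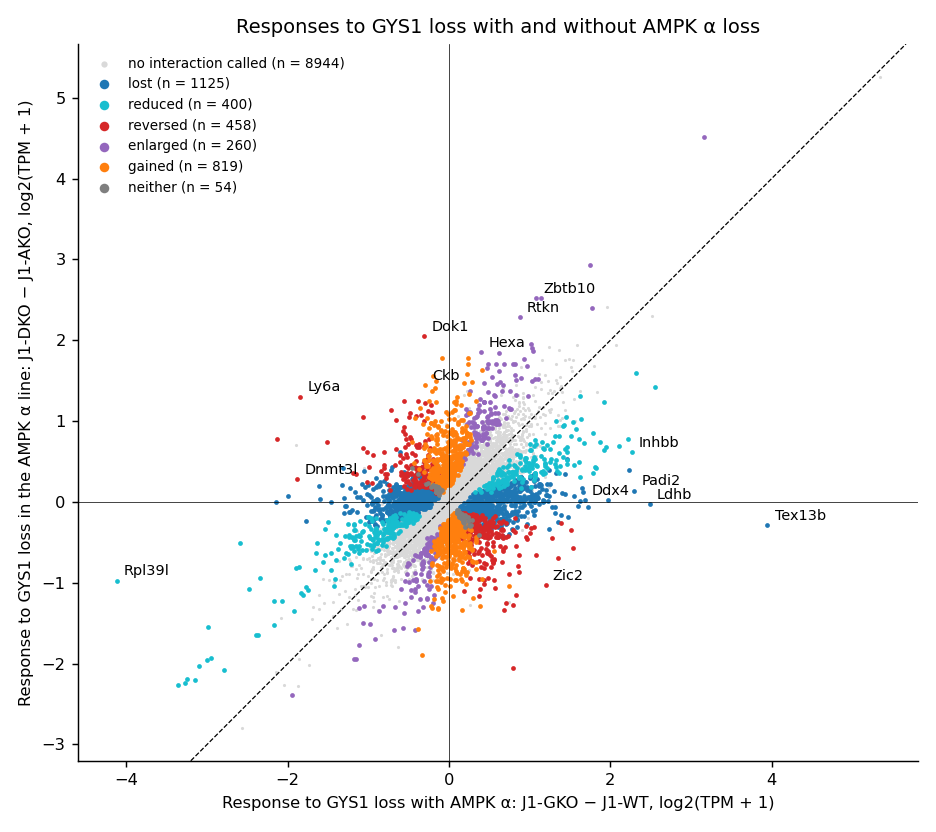
Each point is 1 of the 12060 tested genes, placed by its J1-GKO minus J1-WT difference (x axis) and its J1-DKO minus J1-AKO difference (y axis) on the log2(TPM + 1) scale. Genes on the dashed line responded equally, colours mark the classes, and grey genes had no interaction that passed the threshold. Lost genes such as Padi2 and Ldhb lie along the horizontal axis and gained genes such as Ckb along the vertical axis.

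Ldhb encodes the lactate dehydrogenase subunit that predominates in oxidative tissues. It was at 21.8 and 18.8 TPM in J1-WT and at 111 and 126 TPM in J1-GKO, against 32.5 and 31.8 TPM in J1-AKO and 33.9 and 29.4 TPM in J1-DKO. The J1-GKO libraries lay above all others, and J1-AKO and J1-DKO overlapped. Its interaction was 2.51 (SE 0.13, limma adjusted p = 1.85e-05). Ldhb lies in the shifted part of distal chromosome 6, where the median of its neighbours was 0.59, and after the correction its interaction was 1.85 (limma adjusted p = 5.57e-05). Ldha, the other main lactate dehydrogenase gene, fell in both backgrounds, with responses of -0.56 and -0.63 and an interaction of 0.07 (SE 0.09).

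Padi2, which encodes a peptidylarginine deiminase, was also a lost response. It was at 1.83 and 1.79 TPM in J1-WT and at 12.5 and 13.2 TPM in J1-GKO, against 2.45 and 2.02 TPM in J1-AKO and 2.47 and 2.63 TPM in J1-DKO. Only the J1-GKO libraries were high, and the interaction was 2.16 (SE 0.12, limma adjusted p = 2.83e-05). Mthfd2l, a mitochondrial folate enzyme, was higher by 1.53 in J1-GKO than in J1-WT and lower by 0.57 in J1-DKO than in J1-AKO. Its interaction was 2.10 (SE 0.19, limma adjusted p = 0.000204).

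Smo, which encodes the signal transducer of the Hedgehog pathway, responded in opposite directions. It was at 14.7 and 14.8 TPM in J1-WT and 27.1 and 26.9 TPM in J1-GKO, against 15.3 and 15.3 TPM in J1-AKO and 6.60 and 6.06 TPM in J1-DKO. The line means thus ran from J1-DKO, the lowest, through J1-WT and J1-AKO, which were close to each other, to J1-GKO. The interaction was 1.98 (SE 0.08, limma adjusted p = 8.75e-06) and 1.63 after the correction for its neighbours, whose median was 0.35. On the X chromosome, Tex13b had the highest interaction of the genes at 5 TPM or more, 4.23 (SE 0.16, limma adjusted p = 8.30e-06), with 17.8 and 19 TPM in J1-GKO and at most 0.681 TPM in the other 6 libraries of these lines. Its neighbours had a median of 0.63, and 3.65 remained after the correction. The uncharacterised gene 4930502E18Rik, also on the X chromosome, had an interaction of 2.84 (SE 0.10) while its neighbours had a median of 0.03. Of the 10 highest interactions, those of Sh3bgrl (2.07), Armcx2 (2.05) and Rragb (2.02) were also on the X chromosome, where neighbour medians were 0.47, 0.53 and 0.40 and the corrected interactions 1.47, 1.51 and 1.58.

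Among the lowest interactions, Ly6a, which encodes the surface antigen Sca-1, was at 44.4 and 37.6 TPM in J1-WT and fell to 11.5 and 9.91 TPM in J1-GKO. It was at 29.0 and 33.5 TPM in J1-AKO and rose to 75.8 and 80.8 TPM in J1-DKO. J1-GKO was lowest and J1-DKO highest with no overlap, and the interaction was -3.14 (SE 0.18, limma adjusted p = 2.83e-05). Dok1, a docking adaptor of tyrosine kinases, was at 3.23 and 3.05 TPM in J1-GKO and at 21.9 and 22 TPM in J1-DKO, with 3.81 to 4.78 TPM in the 4 libraries with intact Gys1. Its interaction was -2.36 (SE 0.12, limma adjusted p = 1.83e-05). Spint5 (-2.91), Nefl (-2.11), the neurofilament light chain gene, and Tfpi (-1.85), a coagulation inhibitor gene, likewise fell in J1-GKO and rose in J1-DKO. Rpl39l fell from 51.0 and 53.4 TPM to 1.72 and 2.42 TPM in J1-GKO, and from 45.9 and 44.7 TPM to 23.5 and 21.7 TPM in J1-DKO, an interaction of -3.15. It is a ribosomal protein paralogue with near-identical copies, and its level is therefore uncertain. Klhl13 (-2.09), an adaptor of a ubiquitin ligase, showed a reduced response of the same kind, and Gtsf1l (-2.06) and Zfp600 (-1.81) lost theirs.

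Some genes differed mainly between J1-DKO and J1-AKO. Sox15, a SOX transcription factor gene, was between 2.24 and 3.32 TPM in J1-WT, J1-GKO and J1-AKO and at 9.08 and 11.3 TPM in J1-DKO, an interaction of -1.77 (SE 0.19, limma adjusted p = 0.00038). Ckb, the brain-type creatine kinase gene, was at 456 and 539 TPM in J1-DKO and at most 187 TPM in the other lines. It lies in the shifted part of chromosome 12, with a neighbour median of -0.62, and its interaction changed from -1.74 to -1.13 with the correction (limma adjusted p = 0.00254 and 0.0223). Ggt1, a glutathione-degrading enzyme gene, fell by 1.28 in J1-DKO, and its change of 0.38 in J1-GKO did not pass the test. Zbtb10, a zinc finger factor gene, rose by 2.52 without AMPKα and by 1.08 with it, and Rtkn, the gene of rhotekin, by 2.29 and 0.87. Inhbb, the gene of the inhibin and activin βB chain, behaved in the reduced manner, with a rise of 2.26 in J1-GKO and of 0.62 in J1-DKO.

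**Figure D3:**
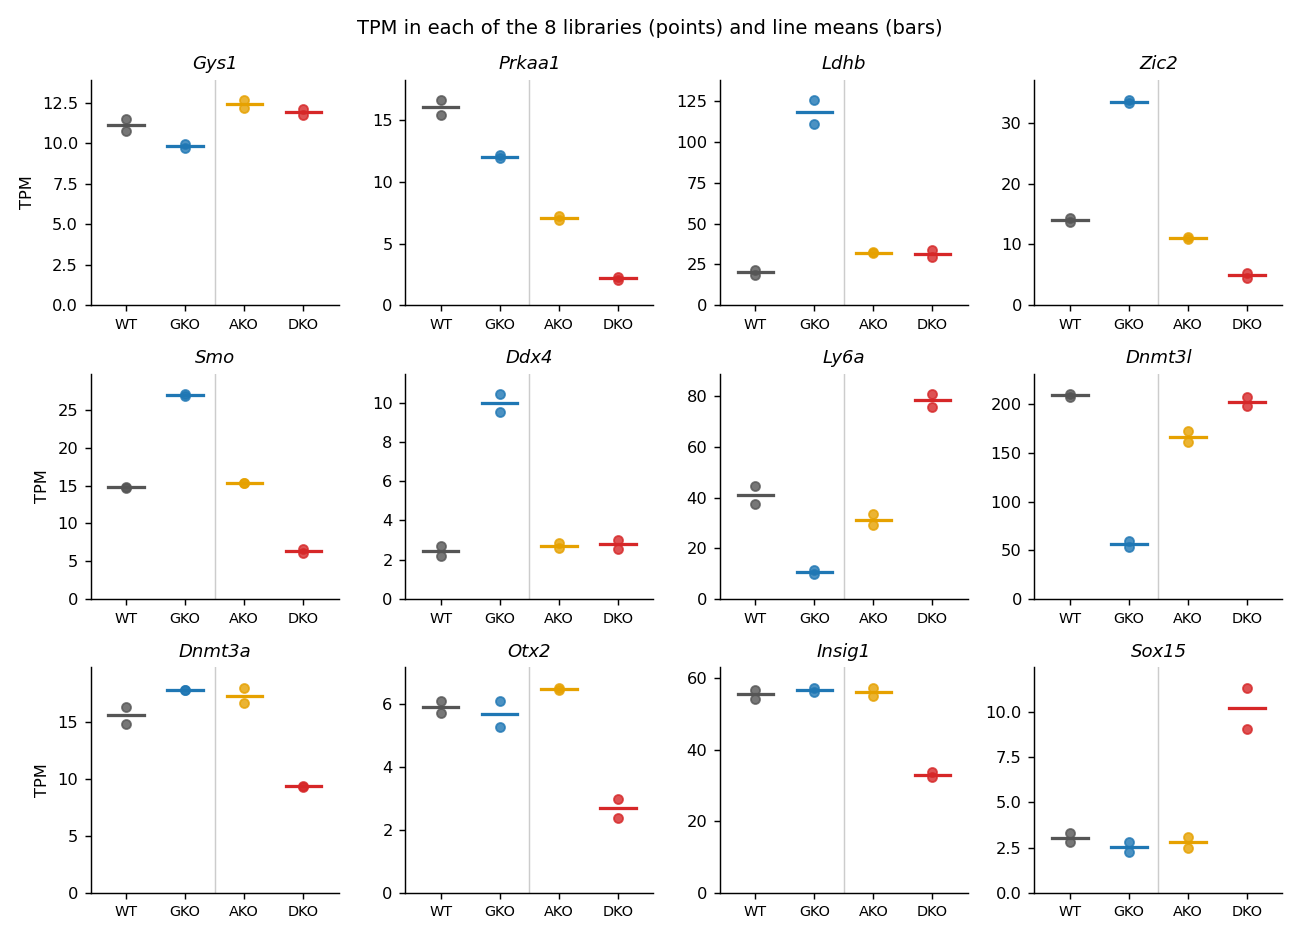
TPM of 12 genes in each of the 8 libraries (points) with the mean of each line (bars), grouped as J1-WT with J1-GKO and J1-AKO with J1-DKO, on linear axes from 0. Ldhb and Ddx4 are high in J1-GKO alone, Smo, Zic2 and Ly6a move in opposite directions in the backgrounds, and Dnmt3a, Otx2, Insig1 and Sox15 stand out in J1-DKO alone.

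Among lists with at least 10 tested genes, germline genes had the highest median interaction. Most genes of meiosis and of the germline are silenced in somatic cells, and in ESCs their CpG-rich promoters are held down by DNA methylation and by a repressor complex that contains MGA, MAX, E2F6, PCGF6 and L3MBTL2. Of 20 listed germline genes 15 were tested, and 10 of these had a positive interaction and 0 a negative one, where 12.8% and 13.1% of all genes did. The median interaction was 0.55, against -0.02 over all genes. The median J1-GKO minus J1-WT difference was 0.01, and 6 genes were higher and 4 lower in J1-GKO. The median J1-DKO minus J1-AKO difference was -0.60, and 0 were higher and 9 lower in J1-DKO. Over all genes, 24.7% were higher and 27.1% lower in J1-GKO than in J1-WT, and 22.4% higher and 23.9% lower in J1-DKO than in J1-AKO. Tex13b and Stra8 passed the filter on low values through J1-GKO alone, the line in which they were high, so a positive interaction was built in for these 2 of the 10. At an unadjusted p under 0.05, 11 were positive and 0 negative, where 4681 of all 12060 genes passed in either direction. After the correction for neighbouring genes 9 positive interactions passed the test, against 1311 of all 12060 genes.

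Ddx4, a germ cell RNA helicase gene, was at 2.68 and 2.17 TPM in J1-WT and at 10.4 and 9.53 TPM in J1-GKO. It was at 2.59 and 2.84 TPM in J1-AKO and at 3.00 and 2.57 TPM in J1-DKO. J1-GKO alone was high, and the interaction was 1.66 (SE 0.14, limma adjusted p = 0.000162). Sycp3, a component of the synaptonemal complex, was at 3.04 and 3.08 TPM in J1-WT, 6.38 and 6.23 TPM in J1-GKO, 3.76 and 3.01 TPM in J1-AKO and 1.46 and 1.59 TPM in J1-DKO, an interaction of 1.64 (SE 0.14, limma adjusted p = 0.000164). Stra8, which marks entry into meiosis, rose by 1.18 in J1-GKO with 1.36 and 2.15 TPM, and was at most 0.388 TPM in the other 3 lines. It lies in the shifted part of proximal chromosome 6, with a neighbour median of 0.36, and its interaction of 1.16 was 0.74 after the correction (limma adjusted p = 0.0189). Tex13b, described above, is also in this list. Piwil2, a piRNA pathway gene, rose by 1.21 in J1-GKO, and its change of 0.22 in J1-DKO did not pass the test. Taf7l, a germ cell TFIID subunit gene, and Mael, a piRNA pathway gene, had changes of 0.01 and -0.05 in J1-GKO that did not pass, and fell by 0.95 and 0.60 in J1-DKO. Taf7l lies in the shifted part of the X chromosome, with a neighbour median of 0.52, and its interaction of 0.97 was 0.39 after the correction (limma adjusted p = 0.134). Rpl10l, an autosomal copy of a ribosomal protein gene used in spermatogenesis, was between 136 and 164 TPM in J1-WT, J1-GKO and J1-AKO and at 70.0 and 74.0 TPM in J1-DKO. It shares sequence with Rpl10, so its level is uncertain. Most of these genes were at a few TPM, and 1 interaction of the list passed the test when a mean of 5 TPM was required.

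The promoters of these genes are shown because several hold the same short motif. RefSeq sequences (GRCm38.p6) from 250 bases before to 50 bases after the start were matched by symbol for 9 of the 10 germline genes with an interaction, in 10 promoters. The E-box CACGTG, which MGA with MAX and other basic helix-loop-helix factors can bind, was present in 7 of these 10 promoters (70.0%), those of Ddx4, Sycp3, Mael, Mov10l1, Taf7l and, at its 2 overlapping starts, Hormad1. It was present in 7.15% of 32851 promoters of all RefSeq genes and in 10.1% of 12192 promoters of tested genes. Among germline genes without an interaction that passed, it was in 2 of 5 promoters. Over all genes it was in 9.90% of promoters with a positive interaction and in 13.4% of those with a negative one. The E2F-type motif GGCGGGA, searched on both strands like the E-box, was in 4 of the 10 promoters and in 21.3% of those of tested genes. A match is a description and not a site shown to be bound. The 250 bases before the start follow, 5′ to 3′ on the strand of the gene, with both motifs in capitals, the E-box as CACGTG and the E2F-type motif as GGCGGGA or its reverse complement. They lie at chr13:112652311-112652560 (minus strand), chr10:88459337-88459586 (plus), chr1:166238745-166238994 (minus) and chrX:134476491-134476740 (minus).
Ddx4: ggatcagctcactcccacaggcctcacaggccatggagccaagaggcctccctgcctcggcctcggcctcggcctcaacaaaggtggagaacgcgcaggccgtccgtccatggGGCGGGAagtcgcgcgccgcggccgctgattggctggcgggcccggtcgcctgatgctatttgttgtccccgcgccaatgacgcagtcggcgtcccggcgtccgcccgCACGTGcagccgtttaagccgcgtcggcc
Sycp3: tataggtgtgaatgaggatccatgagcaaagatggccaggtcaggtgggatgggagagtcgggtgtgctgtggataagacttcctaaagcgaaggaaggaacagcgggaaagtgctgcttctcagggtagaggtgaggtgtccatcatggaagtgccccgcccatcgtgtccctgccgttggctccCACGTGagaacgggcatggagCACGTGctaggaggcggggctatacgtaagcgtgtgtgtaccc
Mael: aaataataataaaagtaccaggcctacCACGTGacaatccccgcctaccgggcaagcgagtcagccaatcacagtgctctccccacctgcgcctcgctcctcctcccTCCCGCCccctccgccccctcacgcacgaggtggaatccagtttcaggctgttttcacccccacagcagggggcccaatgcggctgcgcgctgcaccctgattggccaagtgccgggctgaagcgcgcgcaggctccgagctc
Taf7l: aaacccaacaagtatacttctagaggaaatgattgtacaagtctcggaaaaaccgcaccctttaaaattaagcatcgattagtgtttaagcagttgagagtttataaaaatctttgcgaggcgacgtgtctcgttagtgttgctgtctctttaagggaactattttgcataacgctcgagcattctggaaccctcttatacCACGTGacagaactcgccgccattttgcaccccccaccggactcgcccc

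Genes of the repressor complex itself were looked at after these values were seen. E2f6 was between 13.6 and 15.6 TPM in J1-WT, J1-GKO and J1-AKO and at 8.24 and 8.83 TPM in J1-DKO, an interaction of 0.82 (SE 0.09, limma adjusted p = 0.000521). It lies on proximal chromosome 12, in a window whose median gene differed by -0.50 in J1-GKO and -0.42 in J1-DKO. Part of its fall in J1-DKO was thus shared with its region. L3mbtl2 rose by 0.39 in J1-DKO, with an interaction of -0.49 (SE 0.07, limma adjusted p = 0.0014). Pcgf6 fell by 0.70 in J1-GKO and by 0.63 in J1-DKO and Mga by 0.37 and 0.27, and the interactions of Pcgf6 (-0.07), Mga (-0.11) and Max (0.15) did not pass the test. Pcgf6 lies on chromosome 19, where the median gene differed by -0.40 in J1-GKO and -0.26 in J1-DKO.

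Enzymes of DNA methylation were the list with the highest share of calls among lists of at least 10 tested genes, with 3 positive and 6 negative interactions among 12, where 12.8% and 13.1% of all genes had one. Dnmt3a and Dnmt3b encode the de novo methyltransferases and Dnmt3l their catalytically inactive cofactor. Dnmt3l was at 208 and 211 TPM in J1-WT and at 59.2 and 53.2 TPM in J1-GKO. It was at 161 and 172 TPM in J1-AKO and at 198 and 207 TPM in J1-DKO. The J1-GKO libraries were far below the others, and the interaction was -2.16 (SE 0.09, limma adjusted p = 1.05e-05). Dnmt3a was between 14.8 and 18 TPM in J1-WT, J1-GKO and J1-AKO and at 9.40 and 9.27 TPM in J1-DKO, an interaction of 1.01 (SE 0.10, limma adjusted p = 0.000333). Dnmt3b had the opposite pattern, with 21.5 to 28.3 TPM in those lines and 41.0 and 41.3 TPM in J1-DKO, an interaction of -0.86 (SE 0.09, limma adjusted p = 0.000347). The neighbours of Dnmt3a on chromosome 12 had medians of -0.33 for J1-GKO minus J1-WT and -0.33 for J1-DKO minus J1-AKO. Of the 3 genes of the de novo machinery, Dnmt3l fell in J1-GKO and rose slightly in J1-DKO (0.28), whereas Dnmt3a and Dnmt3b passed in J1-DKO alone. Among demethylation genes, Tet2 rose by 0.55 in J1-DKO and 0.18 in J1-GKO, and Tdg, the thymine DNA glycosylase gene, fell by 0.79 in J1-DKO. After the correction for neighbouring genes 3 positive and 4 negative interactions passed, against 1311 and 1233 of all 12060 genes. DNA methylation itself was not measured.

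**Figure D4:**
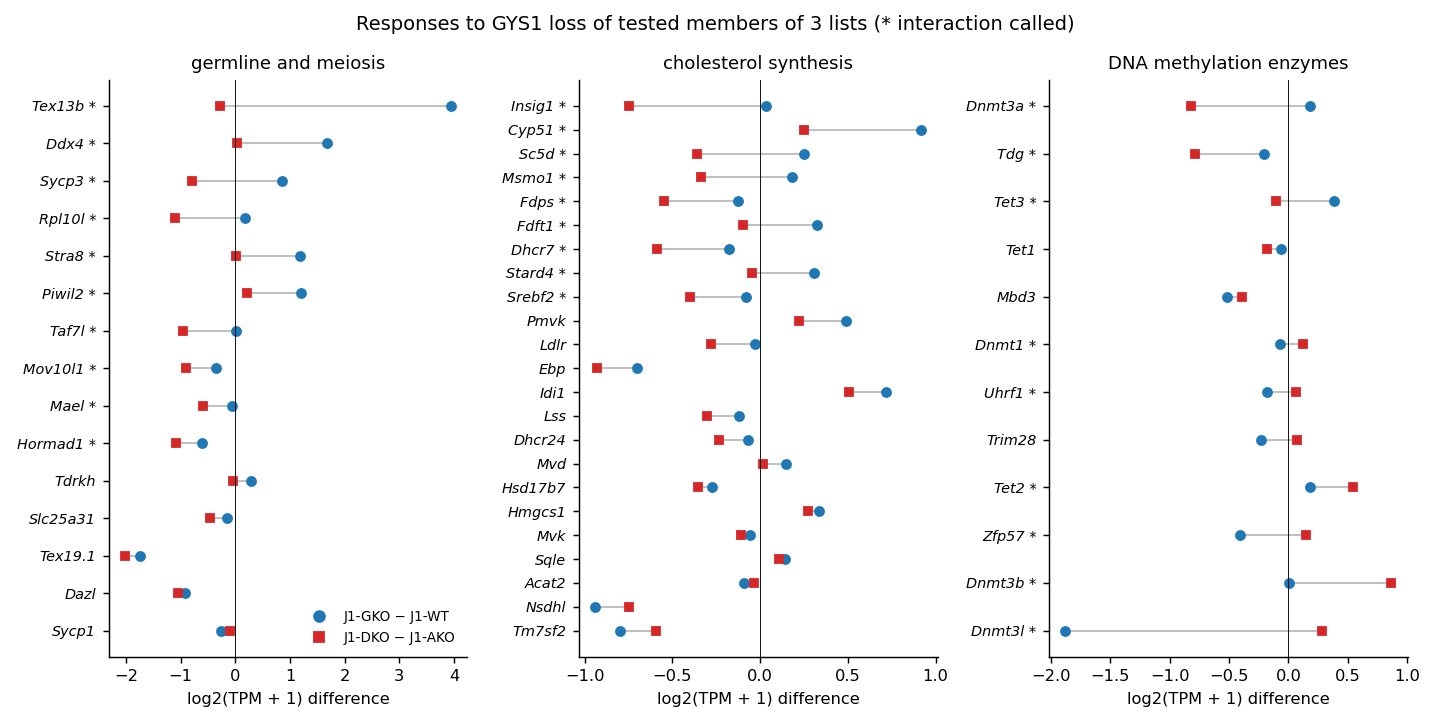
Responses to GYS1 loss of the tested members of 3 lists, with 1 cholesterol gene not shown, with J1-GKO minus J1-WT as circles and J1-DKO minus J1-AKO as squares on the log2(TPM + 1) scale, ordered by the interaction. Asterisks mark interactions that passed the threshold. In the germline and cholesterol lists all marked genes have the square to the left of the circle.

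Genes of formative and primed pluripotency had 7 positive and 3 negative interactions among 19 tested (52.6%, against 25.8% of all genes), with a median of 0.21. Zic2, a zinc finger factor gene of the postimplantation epiblast, was at 14.4 and 13.7 TPM in J1-WT, 33.7 and 33.3 TPM in J1-GKO, 10.9 and 11.2 TPM in J1-AKO and 4.48 and 5.37 TPM in J1-DKO. It was higher in J1-GKO than in J1-WT (1.20) and lower in J1-DKO than in J1-AKO (-1.03). The interaction was 2.23 (SE 0.15, limma adjusted p = 6.76e-05). Zic5, its neighbour on chromosome 14, had an interaction of 0.99 in the same direction, whereas the median of the genes around both was 0.04. The last window of that chromosome had medians of 0.63 for J1-GKO minus J1-WT and 0.53 for J1-DKO minus J1-AKO. The 1.20 of Zic2 thus stands beside a regional rise of 0.63, and its -1.03 ran against that of its region. Otx2, which encodes a factor that directs enhancers at the exit from naïve pluripotency, was at 5.71 and 6.10 TPM in J1-WT and at 5.28 and 6.09 TPM in J1-GKO. It was at 6.44 and 6.51 TPM in J1-AKO and at 2.39 and 2.98 TPM in J1-DKO. J1-DKO alone was low, and the interaction was 0.97 (SE 0.13, limma adjusted p = 0.00115). Otx2 lies on chromosome 14 as well, where the median gene differed by 0.47 in J1-GKO and 0.38 in J1-DKO. The level of Otx2 in J1-GKO did not follow that shift, and its fall in J1-DKO ran against it. T, the gene of brachyury, was at 4.94 and 4.88 TPM in J1-DKO and between 13.2 and 19 TPM in the other lines, and its interaction of 1.54 did not pass (SE 0.84, limma adjusted p = 0.213). The SE includes the difference between the primed libraries, and with the 8 libraries of the 4 lines alone the adjusted p was 4.20e-05.

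Among 20 naïve pluripotency genes, 1 interaction was positive and 5 were negative, a share of 30.0% near the background of 25.8%. Dppa3, a maternal factor gene marking naïve and germ cells, rose by 0.59 in J1-GKO and by 1.46 in J1-DKO, an interaction of -0.87 (SE 0.18, limma adjusted p = 0.00888). Tcl1, a coactivator of AKT, had an interaction of -0.63 that was -0.19 after correction for its neighbours on chromosome 12, whose median was -0.54 (limma adjusted p = 0.179). Zfp516, a zinc finger factor gene, fell by 0.85 in J1-GKO, with an interaction of -1.06 whose call was lost without any of 3 of the 8 libraries. Esrrb (0.08), Klf2 (0.28) and Nr0b1 (-0.11) had interactions that did not pass the test, and the Klf4 difference was 0.35 in either background. Nr0b1 lies in the shifted part of the X chromosome, with a neighbour median of 0.31, and after the correction its interaction was -0.55 (limma adjusted p = 0.0406). None of 15 tested genes of the LIF and STAT3 pathway had an interaction at an adjusted p under 0.05 (limma with Benjamini-Hochberg adjustment), and 2 positive and 1 negative were found at an unadjusted p under 0.05, which 4681 of all 12060 genes passed.

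Cholesterol synthesis is switched on by SREBP2, the product of Srebf2, when sterols are scarce, and INSIG1 holds that factor back. Of 24 cholesterol genes, all tested, 10 had a positive interaction and 0 a negative one, where 12.8% and 13.1% of all genes did, and the median was 0.24. At an unadjusted p under 0.05, which 4681 of all 12060 genes passed, 11 were positive and 0 negative. The median J1-GKO minus J1-WT difference was 0.00, and 10 of the 24 were higher and 3 lower in J1-GKO. The median J1-DKO minus J1-AKO difference was -0.29, and 3 were higher and 13 lower in J1-DKO. Over all genes, 24.7% were higher and 27.1% lower in J1-GKO, and 22.4% higher and 23.9% lower in J1-DKO. Insig1 was between 54.3 and 57.2 TPM in the 6 libraries of J1-WT, J1-GKO and J1-AKO and at 32.2 and 33.7 TPM in J1-DKO. Its interaction was 0.78 (SE 0.07, limma adjusted p = 0.000195). Srebf2 itself fell by 0.40 in J1-DKO, with an interaction of 0.32 (SE 0.05, limma adjusted p = 0.00354). Cyp51, a sterol demethylase gene, rose by 0.92 in J1-GKO, and its change of 0.25 in J1-DKO did not pass. The differences in this list were small, with none reaching 1 on the log2 scale, and 11 positive interactions passed after the correction for neighbouring genes, against 1311 of all 12060 genes.

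Among 20 genes of fatty acid synthesis, 5 interactions were positive and 3 negative, against 12.8% and 13.1% of all genes, with a median of 0.21. Acaca and Fasn, which encode acetyl-CoA carboxylase, a substrate of AMPK, and fatty acid synthase, had interactions of 0.07 (SE 0.12) and 0.12 that did not pass the test. The desaturase genes Scd2 and Fads2 fell by 0.39 and 0.26 in J1-GKO and by 1.04 and 0.89 in J1-DKO, with interactions of 0.65 and 0.62. Both lie on chromosome 19, where the median gene differed by -0.40 in J1-GKO and -0.26 in J1-DKO, so their falls in J1-GKO were no larger than that of the whole chromosome. Acss2, which makes acetyl-CoA from acetate, fell by 0.94 in J1-GKO, and its change of 0.16 in J1-DKO did not pass, an interaction of -1.10 (SE 0.13, limma adjusted p = 0.000637). The elongase genes Elovl7 (0.74) and Elovl1 (-0.71) had interactions of opposite sign.

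Fatty acid oxidation leaned the other way, with 3 positive and 9 negative interactions among 23 tested (52.2%, against 25.8% of all genes) and a median of -0.19. Acadvl, the very long chain acyl-CoA dehydrogenase gene, was at 12.6 and 12.1 TPM in J1-WT and at 5.95 and 6.12 TPM in J1-GKO. It was at 12.0 and 11.3 TPM in J1-AKO and at 11.1 and 10.6 TPM in J1-DKO, an interaction of -0.83 (SE 0.10, limma adjusted p = 0.000657). Slc25a20, the mitochondrial carnitine carrier gene, Etfb, of the electron transfer flavoprotein, and Acadm, the medium chain dehydrogenase gene, fell by 0.42, 0.54 and 0.33 in J1-GKO and rose by 0.34, 0.25 and 0.20 in J1-DKO. Cpt1c, an endoplasmic reticulum relative of the carnitine transferases, rose by 0.43 in J1-GKO and 1.23 in J1-DKO. The positive members were Acsl1, Acsl3 and Acsl4, all acyl-CoA synthetase genes. Acsl4 is on the X chromosome, where its neighbours had a median of 0.67, and its interaction of 0.80 was 0.13 after the correction (limma adjusted p = 0.599). With the correction, 1 positive and 8 negative interactions passed in this list, against 1311 and 1233 of all 12060 genes.

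Carbohydrate genes were mixed. Of 21 glycolysis genes 2 had a positive interaction and 5 a negative one (33.3%, against 25.8% of all genes). Eno1, an enolase gene, fell from 782 and 755 TPM in J1-WT to 497 and 489 TPM in J1-GKO and was at 798 and 783 TPM in J1-AKO and 827 and 888 TPM in J1-DKO, an interaction of -0.76 (SE 0.07, limma adjusted p = 0.000258). Pfkm, the muscle phosphofructokinase gene, was between 7.25 and 7.98 TPM in J1-WT, J1-GKO and J1-AKO and at 15.0 and 13.9 TPM in J1-DKO, an interaction of -0.86. Aldoc, an aldolase gene, fell by 0.37 in J1-GKO and rose by 0.69 in J1-DKO. Among 17 glycogen genes 4 interactions were positive and 2 negative (35.3%). Gyg, the glycogenin gene that primes the chain, and Pgm1, which interconverts glucose phosphates, rose by 0.64 and 0.81 in J1-GKO, with interactions of 0.90 and 0.95. Gaa, the lysosomal glycogen-degrading glucosidase gene, rose by 0.92 in J1-DKO with an interaction of -0.76. Of 28 genes around the TCA cycle, 8 interactions were positive and 6 negative, where 12.8% and 13.1% of all genes were. Pcx, which makes oxaloacetate from pyruvate, was at 30.5 and 32.7 TPM in J1-WT and 10.4 and 10.6 TPM in J1-GKO, against 24.5 and 23.0 TPM in J1-AKO and 19.6 and 20.0 TPM in J1-DKO, an interaction of -1.26 (SE 0.13, limma adjusted p = 0.000302). It too lies on chromosome 19, where the median gene differed by -0.40 in J1-GKO and -0.26 in J1-DKO. Pdk3, an inhibitory kinase of pyruvate dehydrogenase encoded on the X chromosome, had an interaction of 1.28, and of 0.74 after the correction for neighbours with a median of 0.46.

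Of 12 genes of AMPK subunits and upstream kinases, Prkag2, a regulatory γ subunit gene, was at 2.45 and 2.37 TPM in J1-WT, 6.19 and 6.30 TPM in J1-GKO, 3.04 and 2.45 TPM in J1-AKO and 2.71 and 3.17 TPM in J1-DKO. It rose in J1-GKO alone, with an interaction of 1.01 (SE 0.16, limma adjusted p = 0.00236). Prkab2, a β subunit gene, was at 7.79 and 7.82 TPM in J1-DKO and between 5.25 and 6.08 TPM in the other lines, and its interaction of -0.41 lost its call when any 1 of the 8 libraries was left out. Among 23 mTORC1 regulators, 2 interactions were positive and 7 negative (39.1%, against 25.8%), but with the correction for neighbouring genes 1 and 3 passed, against 1311 and 1233 of all 12060 genes. Castor1, an arginine sensor gene, fell by 0.21 in J1-GKO and rose by 0.42 in J1-DKO, and Lamtor4, of the lysosomal Ragulator complex, fell by 0.78 in J1-GKO. Rragb, a Rag GTPase gene on the X chromosome, was at 21.2 and 20.6 TPM in J1-GKO and 5.69 and 4.89 TPM in J1-DKO, against 12.6 to 15.5 TPM in the other lines. Its interaction of 2.02 was 1.58 after the correction (limma adjusted p = 8.42e-05). In the lysosome list, 2 of 30 interactions were positive and 6 negative, a share of 26.7% near the 25.8% of all genes. Hexa, a lysosomal hexosaminidase gene, rose from 5.65 and 5.48 TPM in J1-AKO to 22.3 and 23.0 TPM in J1-DKO, and from 7.46 and 7.75 TPM in J1-WT to 11 and 9.77 TPM in J1-GKO, an interaction of -1.45 (SE 0.19, limma adjusted p = 0.00103). Ctsa, a lysosomal protease gene, was lower by 0.96 in J1-GKO than in J1-WT and had an interaction of -0.77.

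ATF4 induces amino acid synthesis and transport genes when amino acids are short or the endoplasmic reticulum is stressed. Of 25 tested genes of that list, 8 had a positive and 2 a negative interaction, where 12.8% and 13.1% of all genes did, with a median of 0.23. In J1-GKO 11 of the 25 fell and 3 rose, where 27.1% and 24.7% of all genes did, and in J1-DKO 17 fell and 3 rose, where 23.9% and 22.4% did. Phgdh, the entry enzyme gene of serine synthesis, was between 64.2 and 74.0 TPM in the 3 other lines and at 39.4 and 44.6 TPM in J1-DKO, an interaction of 0.72 (SE 0.12, limma adjusted p = 0.00337). Psat1, the next enzyme gene of that pathway, fell by 0.82 and 1.29, and Chac1, a glutathione-degrading stress gene, by 1.11 and 1.77. Psat1 lies on chromosome 19, where the median gene differed by -0.40 in J1-GKO and -0.26 in J1-DKO. Nupr1, a stress cofactor gene, fell by 1.58 in J1-DKO, and its change of -0.38 in J1-GKO did not pass. The call of Nupr1 was lost without any of 3 of the 8 libraries. Cth, of the transsulfuration pathway, was an exception, at 14.1 and 14 TPM in J1-GKO and 34.7 and 34.9 TPM in J1-DKO, an interaction of -1.19 (SE 0.12, limma adjusted p = 0.000265). Slc7a3, a cationic amino acid transporter gene on the X chromosome, had an interaction of 0.80 that was 0.06 after the correction for neighbours with a median of 0.64 (limma adjusted p = 0.674).

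Of 19 p53 target genes, 13 were higher in J1-GKO than in J1-WT and 16 in J1-DKO than in J1-AKO, where 24.7% and 22.4% of all genes were. Their median differences were 0.47 and 0.64. Their interactions were positive for 1 and negative for 4, which is 26.3% of the list, near the background. Trp53inp1 rose by 0.65 and 1.38. Mdm2, which encodes the main inhibitor of p53, rose by 0.75 in J1-DKO, and its change of 0.18 in J1-GKO did not pass. The call of Mdm2 was lost without any of 4 of the 8 libraries. Eda2r, a death receptor gene on the X chromosome, was the positive one, and its interaction of 0.71 was -0.04 after the correction for neighbours with a median of 0.69. With the 8 libraries of the 4 lines alone, 10 of the 19 had an interaction, where 4499 of the 12060 genes did.

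Among signalling lists, the Nodal and Activin list had 4 positive and 1 negative interactions of 17, a share of 29.4% near the 25.8% of all genes. Smad3, a transducer of the pathway, rose by 0.92 in J1-GKO and had a difference of 0.00 in J1-DKO, and Furin, a protease that cleaves Nodal precursors, was at 13.1 and 13.6 TPM in J1-GKO and 4.52 and 4.63 TPM in J1-DKO, an interaction of 1.25 (SE 0.10, limma adjusted p = 0.000127). Fst, an activin antagonist gene, fell by 0.96 in J1-GKO, with an interaction of -0.94. Of 16 BMP genes 4 were positive and 0 negative, where 12.8% and 13.1% of all genes were. Bmp7, a ligand gene, rose by 1.21 in J1-GKO and 0.42 in J1-DKO. Its neighbours on chromosome 2 had medians of 0.48 and 0.35, so its rise in J1-DKO was close to theirs. Dusp9, a MAPK phosphatase gene, rose by 0.63 in J1-GKO and fell by 0.54 in J1-DKO. It lies on the X chromosome outside the shifted region, where its neighbours had a median of -0.22, and its interaction of 1.17 was 1.39 after the correction. Smad5, a transducer gene, had an interaction of 0.50. At an unadjusted p under 0.05, 6 BMP genes were positive and 2 negative, and 4681 of all 12060 genes passed in either direction. Among 12 Wnt targets 4 were positive and 1 negative (41.7%), the last being Tcf7l1, a repressor of Wnt targets, which fell by 0.37 in J1-GKO and rose by 0.71 in J1-DKO. Cdx1, a homeobox target gene, rose by 1.12 in J1-GKO, and Lef1, a Wnt effector gene, fell by 0.54 in J1-DKO. The call of Lef1, 1 of the 4 positive ones, was lost without any of 6 of the 8 libraries. Among 19 hypoxia targets 5 were positive and 1 negative (31.6%). Vegfa, the angiogenic ligand gene, was at 6.78 and 7.85 TPM in J1-GKO and between 3.00 and 3.89 TPM in the other lines, an interaction of 0.97 (SE 0.19, limma adjusted p = 0.00657), and Egln3 (1.09) and Egln1 (0.66), of the HIF prolyl hydroxylases, had interactions of the same sign. In the FGF-ERK list, with 11.1% called, 1 of 18 was positive, Spred2 (0.31), and 1 negative, Phlda1 (-0.75), in cells grown with a MEK inhibitor, and both calls were lost without any of 5 of the 8 libraries.

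Matrix and integrin genes had 6 positive and 9 negative interactions among 22 (68.2%, against 25.8% of all genes), and 4 and 6 after the correction for neighbouring genes, against 1311 and 1233 of all 12060 genes. Lamb1 (1.11), Col4a2 (0.89) and Col4a1 (0.82), of the basement membrane, were on the positive side, with Col4a1 at 1.74 and 1.84 TPM in J1-DKO and between 3.11 and 5.15 TPM in the other lines. The neighbours of Lamb1 on chromosome 12 had medians of -0.54 for J1-GKO minus J1-WT and -0.43 for J1-DKO minus J1-AKO. Itgb5, an integrin chain gene, was at 13.8 and 14.5 TPM in J1-DKO and at most 4.90 TPM in the other naïve lines, an interaction of -1.23 (SE 0.26, limma adjusted p = 0.00906). Epcam, an epithelial adhesion molecule gene, rose from 7.18 and 7.54 TPM to 24.7 and 25.8 TPM in J1-GKO and was at 9.68 and 8.87 TPM in J1-AKO and 11.4 and 9.72 TPM in J1-DKO, an interaction of 1.48 (SE 0.11, limma adjusted p = 8.59e-05). Tfap2c, a factor gene of trophectoderm and germ cell precursors, was at 23.2 and 24.3 TPM in J1-GKO and between 6.29 and 7.39 TPM in the other lines, an interaction of 1.78 (SE 0.46, limma adjusted p = 0.0217) that lost its call when any 1 of the 8 libraries was left out. Its SE, against a median SE of 0.11 over all genes, includes the difference between the primed libraries. The trophectoderm marker sum was highest in J1-GKO too, and it was also higher in J1-DKO than in J1-AKO. Cdx2, a defining factor of that lineage, rose in both backgrounds, by 1.13 and 1.40. Gata3, another such factor, was under 1 TPM in the 8 libraries and lower in J1-GKO than in J1-WT. Of 30 cell cycle genes 9 were positive and 2 negative (36.7%), among them Ccnd2 (1.39), a D-type cyclin gene under 3 TPM in the 8 libraries, and Cdkn1b (-0.72), a cyclin-dependent kinase inhibitor gene. Of 17 imprinted genes 5 were positive and 0 negative, a share of 29.4% near the 25.8% of all genes, and 1 was negative at an unadjusted p under 0.05, which 4681 of all 12060 genes passed. Cdkn1c, an imprinted kinase inhibitor gene, was at 6.66 and 7.10 TPM in J1-GKO and at most 2.63 TPM in the other lines, and Peg10 had an interaction of 1.34 that was 0.87 after the correction for neighbours on chromosome 6 with a median of 0.44. Sgce, which lies beside it, had an interaction of 0.75 that was 0.26 after the correction for the same neighbour median of 0.44 (limma adjusted p = 0.173).

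At the other end, cytosolic ribosomal proteins had 1 positive and 3 negative interactions among 50 tested (8.00%) and complex I subunits 2 and 4 among 37 (16.2%), below the background of 25.8%. Of the 50 ribosomal protein genes 21 fell and 3 rose in J1-GKO, and 15 fell and 2 rose in J1-DKO. Of the 37 complex I genes 21 fell and 1 rose in J1-GKO, and 14 fell and 0 rose in J1-DKO. Over all genes 27.1% fell in J1-GKO and 23.9% in J1-DKO. Rps4x, encoded in the shifted part of the X chromosome, was the positive ribosomal gene, and its interaction of 0.67 was 0.01 after the correction for neighbours with a median of 0.60 (limma adjusted p = 0.973). Ndufv3 (-0.75) and Ndufc1 (-0.48), of complex I, fell by 0.91 and 0.94 in J1-GKO.

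**Figure D5:**
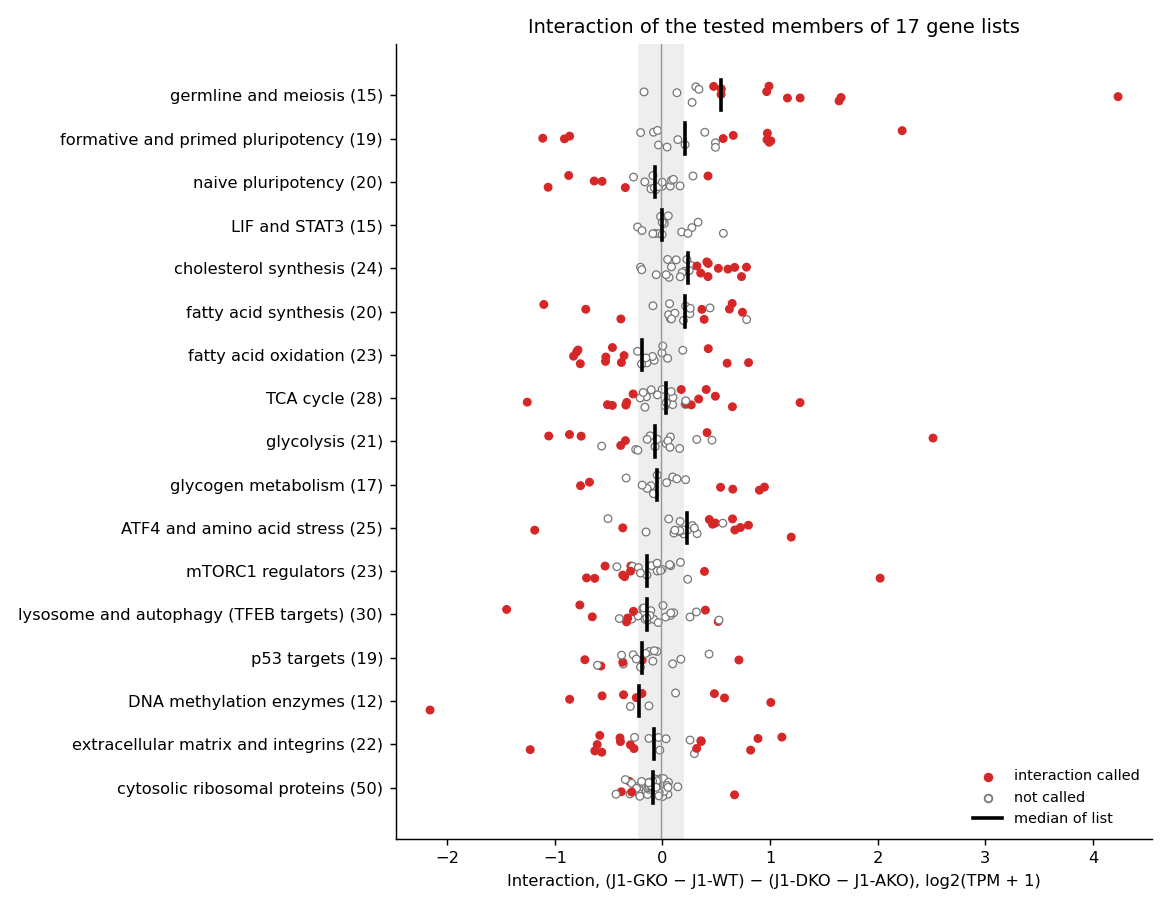
Interaction of each tested member of 17 gene lists on the log2(TPM + 1) scale, with the number tested in brackets. Filled points passed the threshold, black bars are list medians, the grey line is the median of all 12060 genes (-0.02) and the grey band spans their middle quartiles. Of these 17 lists, germline genes have the highest median, 0.55, and DNA methylation enzymes the lowest, -0.22.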

How the data were processed

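Bulk RNA was sequenced in 10 libraries, and groups and replicate numbers were taken from the sample titles. The authors trimmed, aligned and quantified the reads with Trim Galore 0.6.6, STAR 2.7.9a and RSEM 1.3.3 per the submitters' processing notes, and deposited the TPM of each gene. TPM keeps no depth, so the depth per library is unknown and no interval from counts was derived. The submitters' notes name GRCm38 and GRCh38 and the paper's methods GRCm39. Coordinates given here are those of GENCODE M39 on GRCm39 or, for promoters, of RefSeq on GRCm38.p6.

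The scale was log2(TPM + 1), on which changes of low genes are understated. Genes that reached 1 TPM in 2 or more libraries were fitted together in limma 3.58.1 (R 4.3.3) with a mean for each of 5 lines over all 10 libraries, an intensity trend and Benjamini-Hochberg adjustment over all 12060 genes. Gene lists (34) are described by counts and medians, and no set test was run. Genes named are the 10 highest and 10 lowest interactions among genes that passed with at least 5 TPM in a line and the same sign in all 16 choices of 1 library per line, the 3 largest per class and per list, and 18 genes of the study. Other genes were named after their values were seen. The interaction, the members and the lists were chosen with earlier results of these data known. The fit was tested on simulated data, but no outcome of that test is given here and no result rests on it. Alternatives covered the pseudocount, filter, scaling, variance model, libraries, replicate block and chromosomal position. For the correction for neighbours, the median deviation of the 40 nearest tested genes was subtracted in each library. Results for some items are not reported here.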

Additional observations from a re-analysis of the deposited data

Results flagged for a closer look

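The response to GYS1 loss differed between the AMPKα backgrounds, by the interaction term of limma with Benjamini-Hochberg adjustment, for 3116 of 12060 genes. The 6 with the largest size at 5 TPM or more were Tex13b (4.23), Rpl39l (-3.15), Ly6a (-3.14), Spint5 (-2.91), 4930502E18Rik (2.84) and Ldhb (2.51), each on the log2(TPM + 1) scale and with the same sign in all 16 choices of 1 library per line. Tex13b passed the filter on low values through J1-GKO alone, so a positive interaction was built in for it. No group was large enough for a test of single libraries that lie far from the rest.

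A signal also appeared outside the 8 libraries compared. In primed replicate 1, Fgf5 was at 10.7 TPM, Cer1 at 9.80 TPM and Sox17 at 3.04 TPM, against 0.447, 0.484 and 0.303 TPM in primed replicate 2. These genes of the primed epiblast and endoderm reached 1 TPM in 1 library, where the filter asked for 2, so no interaction was tested for them. Fgf5 was at most 0.138 TPM in the 8 libraries of the 4 lines. The median size of the difference between the replicates was 0.13 on the log2 scale for the primed line and 0.06 to 0.07 for the others.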

How the results depend on the processing

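Of the 111 named genes that passed, 82 kept their direction and their side of the threshold in every alternative and 87 in every one other than leaving out a library. Calls were lost when libraries were left out for 22 of them, among them Cdkn2a, Cldn6, Krt18, Neurod1, Pdgfrb, Qprt, Thy1, Tfap2c and Prkab2, which lost theirs without any 1 of the 8 libraries. The others lost theirs without any of 7 (Col1a1, Fcor, Neil1), 6 (Eda2r, Lef1, Rpl10, Rplp1), 5 (Phlda1, Spred2), 4 (Mdm2) or 3 libraries (Ndufc1, Nupr1, Zfp516). All these fits kept the primed libraries in the estimate of the spread. The cause of the changes below was not tested.

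An adjusted p under 0.01 left 1537 genes (784 positive, 753 negative), of which 642 were lost, 142 reduced, 193 reversed, 74 enlarged, 462 gained and 24 neither. A size of at least 1 left 349 (178 and 171), of which 97, 31, 128, 17, 76 and 0 were in these classes. The 8 libraries of the 4 lines alone gave 4499 genes, with 729 reduced, 690 reversed and 507 enlarged. The class neither held 33 genes with no filter on low values. After the correction for neighbouring genes 237 were reduced. The slope was 0.507 at a pseudocount of 0.1 TPM, 0.544 at a mean of 5 TPM, 0.499 with quantile normalization, 0.505 after the correction for neighbours and 0.551 without the shifted regions, the last 2 being chosen after seeing the data.

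With 1 library left out, the genes with an interaction ranged from 1944 to 4500, the positive from 984 to 2173 and the negative from 960 to 2327. The classes ranged from 679 to 1450 (lost), 192 to 724 (reduced), 282 to 689 (reversed), 95 to 512 (enlarged), 511 to 1075 (gained) and 19 to 54 (neither), and the slope from 0.506 to 0.530. The values of Acaca ranged from -0.0082 to 0.16, of Klf4 from -0.046 to 0.041, of Nr0b1 from -0.24 to 0.021 and of Nanog from -0.13 to 0.0054, none of which passed.

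The replicate numbers did not pair the libraries, since deviations of same-numbered libraries correlated between -0.13 and 0.08. With the replicate number as a block, 2875 genes had an interaction, 2800 of them shared in direction with the 3116, and 33 were in the class neither.

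Signs of small values turned for Klf4 with median-ratio scaling (0.024) and for Klf4 (0.14) and Pou5f1 (0.0015) centred by chromosome. After the correction for neighbours they turned for Eda2r (-0.040), Eomes (0.035), Esrrb (-0.018), Gys1 (0.13), Klf4 (0.14), Pou5f1 (0.0038) and Zfp42 (-0.11). Of these, Eda2r alone had passed. Depth is unknown from TPM, which limits what can be said of genes under a few TPM.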
